A study of Danio rerio with 11 samples.

Results

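Radial glia are the neural stem cells of the embryonic brain and spinal cord. Their cell bodies line the ventricle and their processes span the wall of the neural tube, and in zebrafish they persist into adult life. They are recognised by a small set of transcripts: fabp7a, which encodes the brain fatty acid binding protein, a carrier of long-chain fatty acids in the cytoplasm; gfap, vim and nes, which encode the intermediate filament proteins GFAP, vimentin and nestin; and glula, which encodes glutamine synthetase, the enzyme that joins ammonia to glutamate. These transcripts are not confined to the nervous system. Vimentin, for example, is known from lens and mesenchyme, and glutamine synthetase from many tissues.

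The members were 5 genes chosen by name, and 4 of them, fabp7a, gfap, vim and glula, were among the 14473 genes of the deposited tables. The fifth, nes, was not analysed here. All 4 were measured in every embryo with at least 1679 counts, and all 4 passed the filter on low counts.

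RNA was measured in 11 single whole zebrafish embryos raised at 29 °C to about 25 hours after fertilisation (hpf). The 6 mutants (replicates 1, 3, 4, 5, 6 and 7) are labelled as rfx4 mutants, and the 5 siblings (replicates 2, 3, 4, 7 and 8) as controls. The series design gives the cross as an incross of carriers of the rfx4 allele uw8013, with embryos sorted by appearance, whereas the growth protocol names parents that were double carriers of zic2 mutations. The labels do not say which siblings were wild type and which heterozygous, nor whether all embryos came from 1 clutch. The gene rfx4 encodes a winged-helix transcription factor of the RFX family, and the comparison asks what differs at the RNA level in embryos of mutant appearance. Since whole embryos were used, fewer radial glia and less RNA per radial glial cell cannot be told apart.

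Total counts ran from 16238368 to 21104811 per embryo. The embryos mutant 6, mutant 7 and sibling 3 stood apart from the other 8 on the first 2 principal components of all tested genes, so the values of the members are given with and without them. The gene lists below were counted over all 11 embryos only. Levels are given in CPM, counts scaled to 1000000 per library. The mean level of rfx4 was 60.4 ± 9.8 CPM in the 5 siblings and 41.9 ± 8.7 CPM in the 6 mutants (SD), and mutants 6 and 7, at 54.1 and 51.1 CPM, lay within the sibling range of 50.6 to 74.3 CPM. Markers of other tissues were present in every embryo. The summed level of 17 muscle genes was 20585 to 30201 CPM in mutants and 22867 to 29568 CPM in siblings, that of 11 epidermis genes 33825 to 46677 CPM and 35641 to 46540 CPM, and that of 23 neuron genes 1460 to 1775 CPM and 1467 to 1711 CPM. By edgeR's quasi-likelihood test with Benjamini-Hochberg adjustment over the 12301 tested genes, 0 genes passed 0.05 (0% of those tested). Without adjustment 843 genes (6.85%) had an edgeR p under 0.05, and DESeq2 called 44 genes (0.358%).

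The fitted level of fabp7a was 71.1% of the sibling level in mutants, a 1.41-fold difference. The gfap level was 83.7% of the sibling level, vim 90.2% and glula 91.5%. These are point estimates, and the difference of fabp7a was not told apart from those of the other 3 (ratios within embryos, adjusted exact permutation p = 0.0682, 0.0682 and 0.240). All 4 fitted values were lower in mutants, against 49.8% of all tested genes. The median log2 fold change of the 4 was −0.20, beside a median of 0.0009 over all tested genes. Both values include fabp7a, picked with its difference already known, so neither is independent support for a shared difference. The vim and glula values each lay within 2 SE of 0. None of the 4 passed by edgeR, and DESeq2 called 1, fabp7a, where 0% and 0.358% of all tested genes were called. The values of the 2 groups overlapped for all 4. Only 0.943% of all tested genes had no overlap in either direction, so this overlap does not set the 4 apart.

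The level of fabp7a in the siblings was 178 CPM in sibling 2, 175 in sibling 3, 133 in sibling 4, 170.0 in sibling 7 and 165 in sibling 8. In the mutants the lowest value was 100.4 CPM, the median 111 CPM and the highest 154 CPM. Of the 6 mutants, 5 lay below every sibling, and mutant 4, at 154 CPM, lay above sibling 4 and below the other 4 siblings, so the groups overlapped. The mutant mean was 117 ± 19.6 CPM (SD, n = 6), and the sibling mean was 164 ± 18.4 CPM (SD, n = 5). The spread of 16.8% of the mean in mutants and 11.2% in siblings was above the counting error of 2.22% and 1.81%. Mutants 6 and 7, whose rfx4 levels were within the sibling range, had fabp7a levels of 100.4 and 122 CPM, below every sibling.

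The log2 fold change of fabp7a was −0.49 ± 0.11 (SE), and it ranked 32nd of the 12301 genes by p. The edgeR adjusted p was 0.271, limma-voom gave 0.267 and DESeq2 0.0164. An exact two-sided permutation test over all splits of the embryos gave p = 0.00866 for this gene alone. The gene was picked for study with its difference already known, so these p-values are no independent support.

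**Figure D1:**
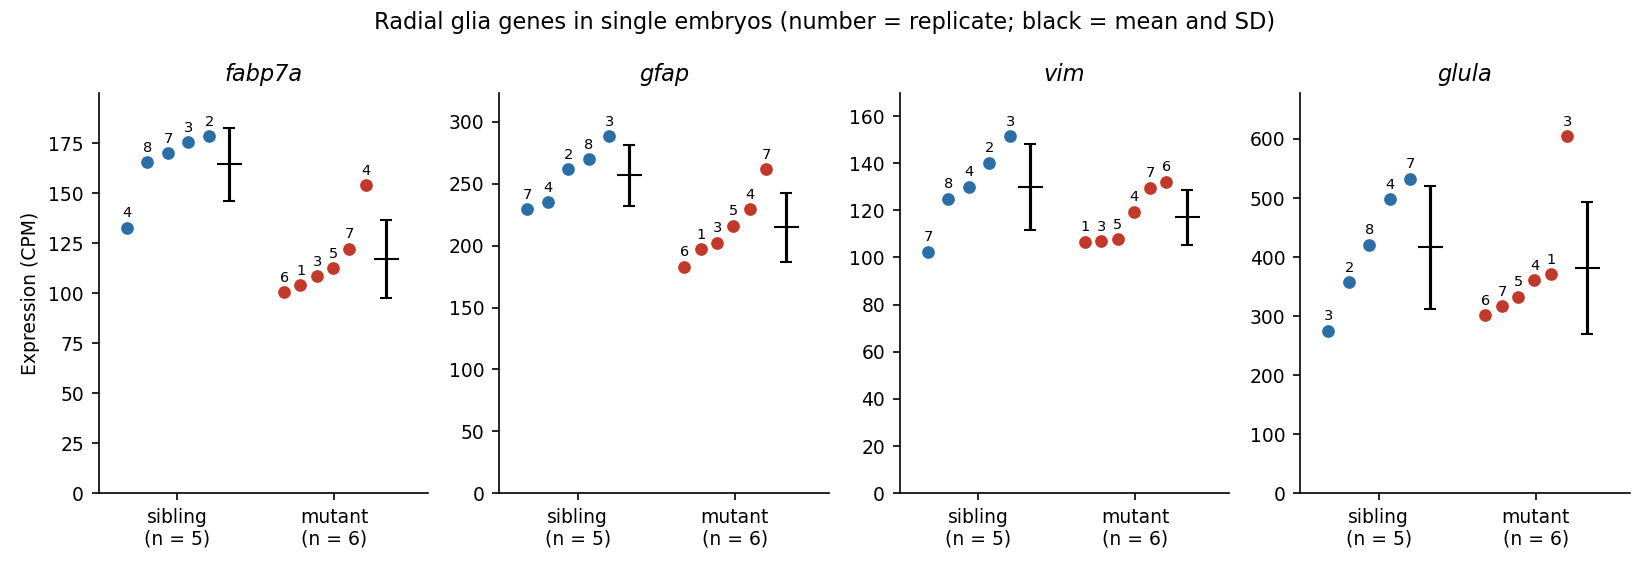
Expression of the 4 radial glia genes in each embryo, in CPM on a linear axis from 0, with 5 siblings in blue and 6 mutants in red. Numbers are the replicate numbers, and black marks give the mean and SD. For fabp7a 5 of 6 mutants lie below all siblings, for gfap 4 of 6, and for vim and glula 0 of 6.

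The DESeq2 call of fabp7a was not kept in every removal of 1 embryo. With each embryo left out in turn it was kept in 4 of 11 cases, without mutant 4, 6 or 7 or sibling 4. It was lost in 7, without mutant 1, 3 or 5 or sibling 2, 3, 7 or 8, where the highest DESeq2 adjusted p was 0.135. Fewer embryos also give the test less power, so a loss does not show that the call rested on the embryo removed. Without mutant 4, the mutant with the highest level, the DESeq2 adjusted p was 1.83e-05 with a log2 fold change of −0.58 ± 0.10 (SE). The edgeR adjusted p stayed between 0.163 and 0.633 in all 11 cases. The direction and most of the size held in each of them, with edgeR log2 fold changes from −0.59 to −0.45. Without mutant 6, mutant 7 and sibling 3 the log2 fold change was −0.43 ± 0.13 (SE), and the adjusted p was 0.298 in edgeR and 0.0861 in DESeq2.

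**Figure D2:**
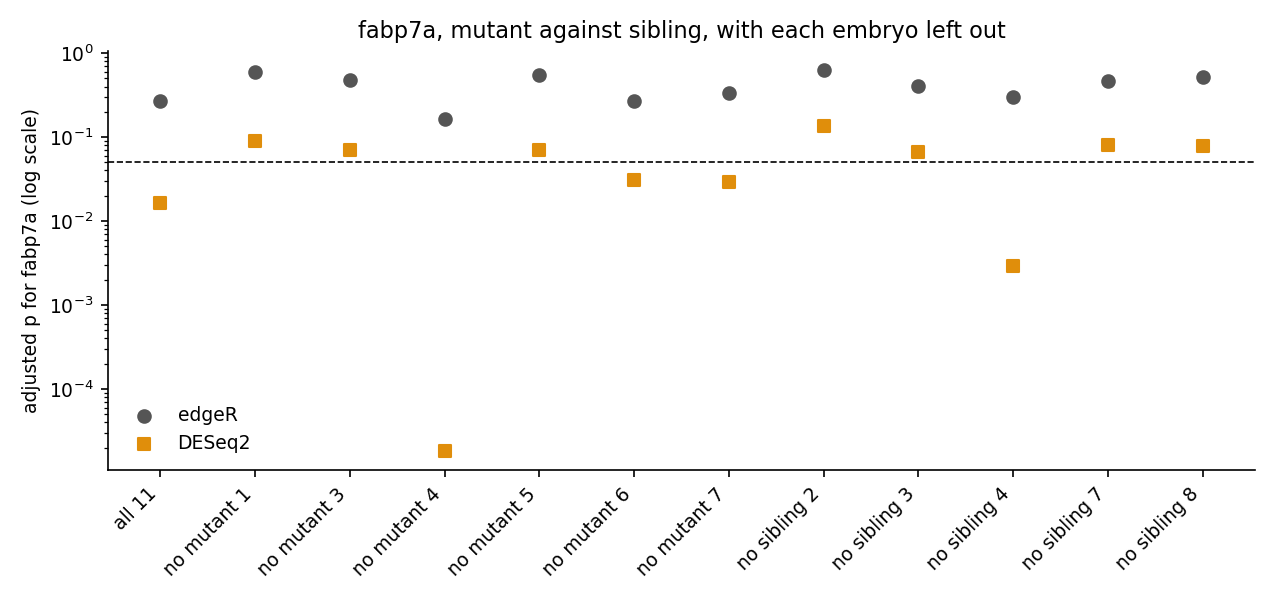
Adjusted p of fabp7a, mutant against sibling, on a log axis, for all 11 embryos and with each embryo left out, by edgeR (grey circles) and DESeq2 (orange squares). The dashed line marks 0.05. The edgeR values all lie above it, and the DESeq2 values lie below it for all 11 embryos and for 4 of the 11 removals.

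The filament gene gfap, whose promoter is widely used to mark zebrafish radial glia, was measured with more counts than fabp7a. It was at 262 CPM in sibling 2, 288 in sibling 3, 235 in sibling 4, 229 in sibling 7 and 269.7 in sibling 8, and in the mutants at 183 CPM at the lowest, 209 at the median and 262 at the highest. Of the 6 mutants, 4 lay below every sibling, while mutants 4 and 7 lay among the siblings. The mutant mean was 215 ± 27.9 CPM (SD, n = 6) and the sibling mean 257 ± 24.5 CPM (SD, n = 5). Its log2 fold change of −0.26 ± 0.09 (SE) did not pass in edgeR (adjusted p = 0.662) or DESeq2 (adjusted p = 0.475). For this gene alone the exact two-sided permutation test gave p = 0.0303. Without mutant 6, mutant 7 and sibling 3 it was −0.23 ± 0.07 (SE), with an edgeR adjusted p of 0.333.

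Vimentin transcripts did not separate the groups. The vim level was 140.2 CPM in sibling 2, 151 in sibling 3, 130.0 in sibling 4, 103 in sibling 7 and 125 in sibling 8, and ran from 107 CPM over a median of 114 to 132 CPM in the mutants. No mutant lay below the lowest sibling, sibling 7. The mutant mean was 117 ± 11.7 CPM (SD, n = 6) and the sibling mean 130 ± 18.3 CPM (SD, n = 5). The fitted log2 difference was −0.15 ± 0.10 (SE), so that 2 SE to either side spanned −0.34 to 0.05. The edgeR adjusted p was 0.806 and the exact permutation p 0.214. Sibling 7 was the lowest of the 11 embryos for vim and the third highest for fabp7a. Without sibling 7 the vim value was −0.22 ± 0.08 (SE, edgeR adjusted p = 0.788), and without sibling 3 it was −0.09 ± 0.10. Without mutant 6, mutant 7 and sibling 3 it was −0.17 ± 0.09 (SE, edgeR adjusted p = 0.629).

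Glutamine synthetase transcripts varied most among embryos of the same group. The glula level was 358 CPM in sibling 2, 276 in sibling 3, 498 in sibling 4, 533 in sibling 7 and 421 in sibling 8. In the mutants it was 301 CPM at the lowest, 347 at the median and 605 at the highest. Its highest value, in mutant 3, and its lowest, in sibling 3, were 2.19-fold apart and ran against the order of the group means. The mutant mean was 381 ± 112 CPM (SD, n = 6) and the sibling mean 417 ± 104 CPM (SD, n = 5), a spread of 29.5% and 25.0% of the mean, beside a counting error of 1.22% and 1.15%. The log2 fold change was −0.13 ± 0.20 (SE), and 2 SE to either side spanned −0.52 to 0.27, which holds no difference as well as one the size of that of fabp7a. The edgeR adjusted p was 0.928 and the exact permutation p 0.571. Mutant 3 moved this value by over 1.5 times, to −0.30 ± 0.15 (SE, edgeR adjusted p = 0.703) when left out. It was −0.25 without sibling 3. The value moved the other way, to −0.07, −0.08, −0.06 and −0.02, without mutant 6, mutant 7, sibling 4 and sibling 7, in that order. Without mutant 6, mutant 7 and sibling 3 together it was −0.11 ± 0.18 (SE, edgeR adjusted p = 0.901).

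The 4 genes did not follow one pattern over the embryos. Pearson's r of log2 CPM, after each group's mean was subtracted, was 0.62 for fabp7a with gfap. It was 0.47 for gfap with vim and 0.12 for fabp7a with vim. With glula it was −0.26 for fabp7a, −0.47 for gfap and −0.74 for vim. For glula the 3 embryos that stood apart, mutant 6, mutant 7 and sibling 3, had the lowest levels of all 11, from 276 to 317 CPM, below the 333 to 605 CPM of the other 8. For vim the same 3 embryos lay at 130 to 151 CPM, in the upper part of the range, and the other 8 had a median of 114 CPM. For fabp7a and gfap the 3 did not lie together: mutant 6 was the lowest of all 11 embryos for both genes, while sibling 3 was the highest for gfap and the second highest for fabp7a. What sets these 3 embryos apart was not tested.

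**Figure D3:**
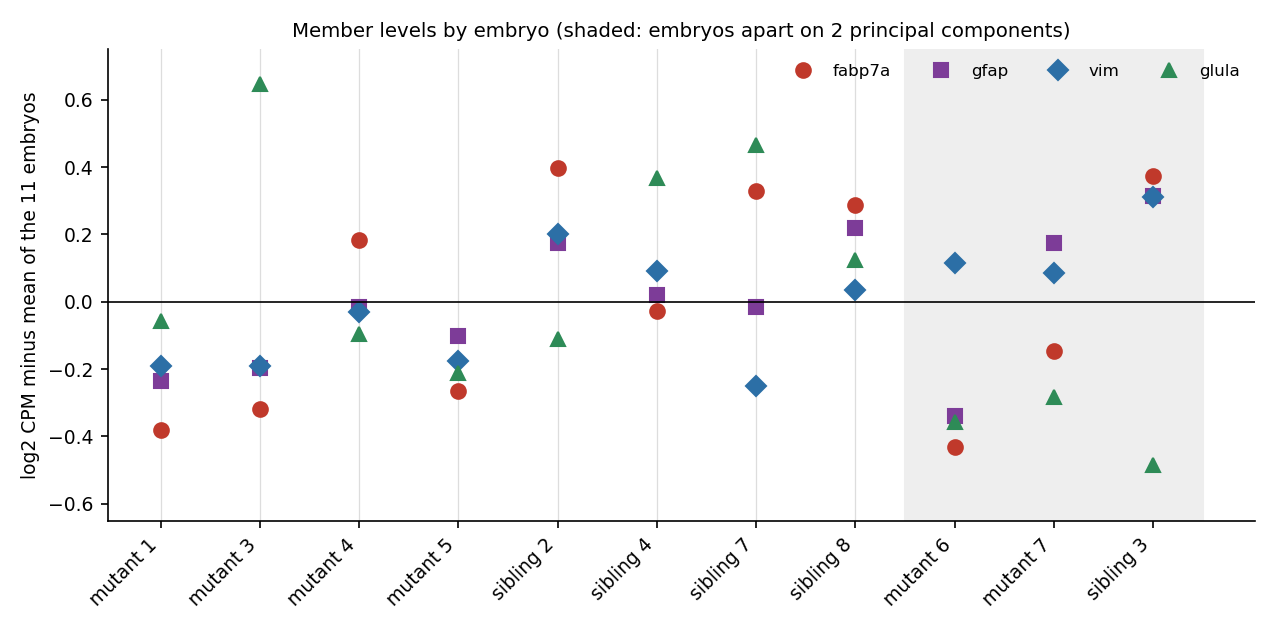
Log2 CPM of each radial glia gene minus its mean over the 11 embryos, with the 3 embryos that stood apart shaded. In the shaded embryos glula lies lowest of all 11, and fabp7a is spread from the lowest value, in mutant 6, to the second highest, in sibling 3.

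Whether fabp7a differed more than the other members was asked with the log2 ratio of 2 genes within each embryo, from which the scaling of the library drops out. The ratio of fabp7a to gfap was lower in mutants by a mean of −0.24, at −0.88 ± 0.17 against −0.65 ± 0.15 (SD, n = 6 and 5; exact two-sided permutation p = 0.0455). Of the 6 mutants, 5 lay below every sibling. The ratio to vim was lower by −0.36 (exact permutation p = 0.0411, 4 of 6 mutants below every sibling) and that to glula by −0.37 (exact permutation p = 0.240, 1 of 6). Adjusted over the 3 ratios these exact permutation p-values were 0.0682, 0.0682 and 0.240, so none passed. Leaving out 1 embryo took the unadjusted exact p of the ratio to gfap to 0.05 or above in 9 of 11 cases, all but the removal of mutant 4 or sibling 4, and the same held for the ratio to vim. A smaller difference for gfap or vim than for fabp7a was therefore not shown. Since fabp7a was picked with its difference already known, the p-values of these ratios are no independent support either.

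Levels of different genes were compared in TPM, transcripts scaled to 1000000 per library, which take account of gene length. In the siblings fabp7a was at 371 ± 43.3 TPM (SD, n = 5), glula at 312 ± 74.7, gfap at 149 ± 15.8 and vim at 107 ± 16.3 TPM. By these sibling means fabp7a ranked 361st of the 14473 genes, glula 427th, gfap 923rd and vim 1283rd. In the mutants the TPM values were 268 ± 35.3 for fabp7a (SD, n = 6), 294 ± 93.4 for glula, 127 ± 14.2 for gfap and 98.5 ± 8.9 for vim. Both fabp7a and glula lay above gfap and vim in each of the 11 embryos, and gfap lay above vim in 10 of 11, the exception being mutant 6. The order of fabp7a and glula was not fixed, with fabp7a higher in 4 of 6 mutants and 3 of 5 siblings.

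The paralogs of the members gave a closer comparison for each. The duplicate of fabp7a, fabp7b, was expressed at 0.95 to 6.75 TPM, with 7 to 62 counts per embryo. Its fitted difference, −0.47 ± 0.32 on the log2 scale (SE; adjusted p = 0.806 in edgeR), had too wide an error to tell it from 0 or from that of fabp7a. The gene fabp3, whose product in mammals is the heart fatty acid binding protein, was at 974 to 1546 TPM and at 0.08 ± 0.11 (SE). The second glutamine synthetase gene, glulb, varied less between embryos than glula, at 340 to 410 TPM beside 203 to 480 TPM, with a log2 fold change of −0.004 ± 0.06 (SE). It lay above glula in 9 of 11 embryos. The third, glulc, had 0 to 9 counts per embryo and was not tested. Among the filament genes related to gfap and vim, the muscle desmin gene desma was at 0.02 ± 0.10 (SE), the peripherin gene prph at 0.08 ± 0.16, and the internexin genes inaa and inab at −0.01 ± 0.28 and 0.06 ± 0.12. The second desmin gene, desmb, was at most at 2.19 TPM and gave 0.003 ± 1.04. Near-identical stretches of such paralogs can exchange reads in the authors' estimate.

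**Figure D4:**
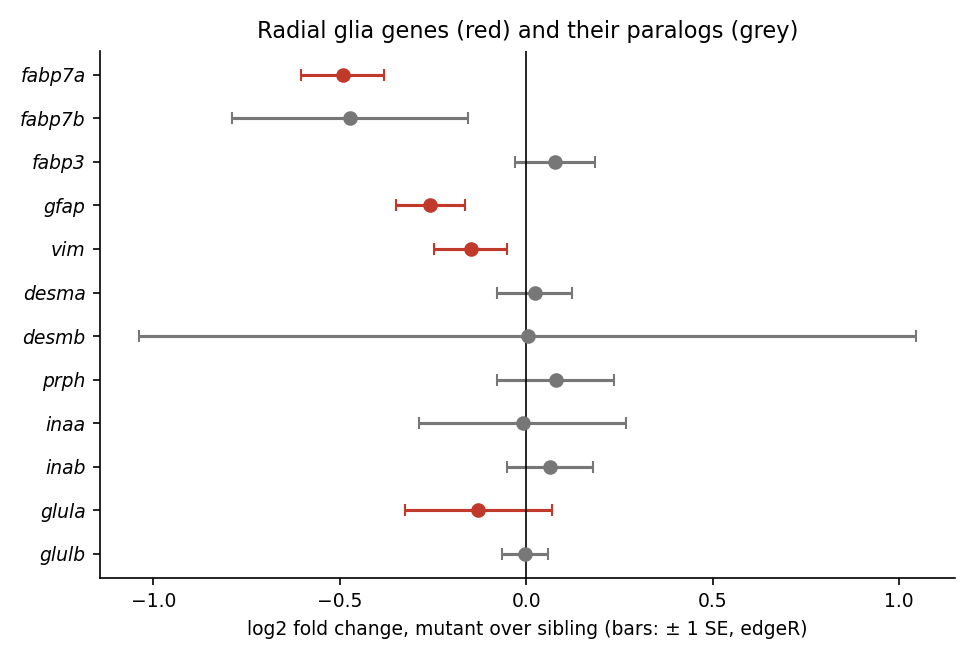
Log2 fold change, mutant over sibling, of the 4 radial glia genes (red) and their paralogs (grey), with bars of 1 SE from the edgeR fit. The value of fabp7a, −0.49, is the lowest and that of its duplicate fabp7b, −0.47, has an SE of 0.32, while glulb lies at −0.004 beside −0.13 for glula.

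In a list of 50 further radial glia and neural stem cell genes, 49 were tested. The fit put 31 of them lower and 18 higher in mutants, and their median log2 fold change was −0.02. Over all tested genes 49.8% were fitted lower, the share to set beside this list and the later ones. None passed by edgeR or DESeq2, where 0% and 0.358% of all tested genes did. At an unadjusted edgeR p under 0.05, 4 were lower, where 3.06% of all tested genes were, and 1 was higher, where 3.79% were. The lower ones were the midkine gene mdkb, which encodes a secreted growth factor, at −0.25 ± 0.08 (SE), the SoxB1 gene sox19b at −0.26 ± 0.11, the membrane glycoprotein gene gpm6aa at −0.22 ± 0.10 and the gene listed as LOC100149863, a synonym of the Notch target her4.1, at −0.21 ± 0.09. The higher one was sox9a, a transcription factor gene of glia and cartilage, at 0.17 ± 0.07. The neural stem cell factor genes sox2 (−0.06 ± 0.09), sox3 (−0.13 ± 0.10) and pax6a (−0.01 ± 0.07) each lay within 2 SE of 0. So did the Notch receptor gene notch1a (−0.003 ± 0.12) and the repressor genes her6 (0.05 ± 0.07) and her9 (0.06 ± 0.06).

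The genes of mature astroglial function were split between well expressed and barely detected. The glutamate transporter gene slc1a3a, a radial glia marker, was at 106 to 152 TPM and at −0.02 ± 0.09 (SE), and slc1a2b at 17.0 to 24.3 TPM and 0.03 ± 0.11. The calcium-binding protein gene s100b reached at most 2.19 TPM, and cyp19a1b, the brain aromatase gene of adult zebrafish radial glia, at most 0.26 TPM and was not tested. In the list of glutamate and glutamine genes, which holds glulb and the transporters, 8 of 15 were fitted lower and 7 higher (median −0.004). An unadjusted edgeR p under 0.05 was reached by 0 of them and by 6.85% of all tested genes. Its genes of lowest p were the glutaminase gene glsa (0.16 ± 0.12) and the glutamate dehydrogenase gene glud1a (−0.15 ± 0.13).

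The lists of fatty acid and retinoid binding protein genes and of intermediate filament and associated genes held no gene called by edgeR or DESeq2. Over all tested genes 0% and 0.358% were called. The members themselves were not counted in these lists. Of 13 tested fatty acid and retinoid binding protein genes, 7 were fitted lower and 6 higher (median −0.05). At an unadjusted edgeR p under 0.05, 2 were lower, where 3.06% of all tested genes were, and 0 higher. These 2 were the retinol binding protein genes rbp1a, at −0.23 ± 0.07 (SE), and rbp4, at −0.59 ± 0.25. Of 9 intermediate filament and associated genes, 4 were lower and 5 higher, with a median of 0.003. None had an unadjusted edgeR p under 0.05, where 6.85% of all tested genes did. The lowest p belonged to the neurofilament gene nefma (0.08 ± 0.13) and to inab.

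Markers of cells next to or derived from radial glia were counted in the same way. Of 10 tested oligodendrocyte lineage genes, 8 were fitted lower (median −0.07), and 3 lower genes had an unadjusted edgeR p under 0.05, where 3.06% of all tested genes did. These were the ventral neural tube homeobox genes nkx2.2b (−0.40 ± 0.10 SE, DESeq2 adjusted p = 0.0497) and nkx2.2a (−0.36 ± 0.09) and the myelin proteolipid gene plp1a (−0.34 ± 0.13). The transcription factor genes olig2 and sox10 were at −0.25 ± 0.11 and 0.16 ± 0.08, and olig1 was at or below 0.39 TPM. The gene sox10 is also in the neural crest list below. The summed level of this list was 474 to 617 CPM in mutants and 559 to 674 CPM in siblings. By far the highest level in it was that of plp1a, with a sibling mean of 339 CPM against a mutant mean of 268. Next came mbpb, with means of 78.0 and 74.3 CPM in the same order. Log2 fold changes of olig3, olig4, mbpb, cldnk and pdgfra each lay within 2 SE of 0. The sum therefore leans on plp1a and does not show a lower level across the list. Of 23 neuron genes, 11 were lower and 12 higher, with a median of 0.04. At an unadjusted edgeR p under 0.05, 1 neuron gene was higher, the stathmin gene stmn2b (0.33 ± 0.11), where 3.79% of all tested genes were, and 1 was lower, the tubulin gene tubb5 (−0.21 ± 0.09), where 3.06% were. The part of these differences in the values of fabp7a and gfap was not tested.

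**Figure D5:**
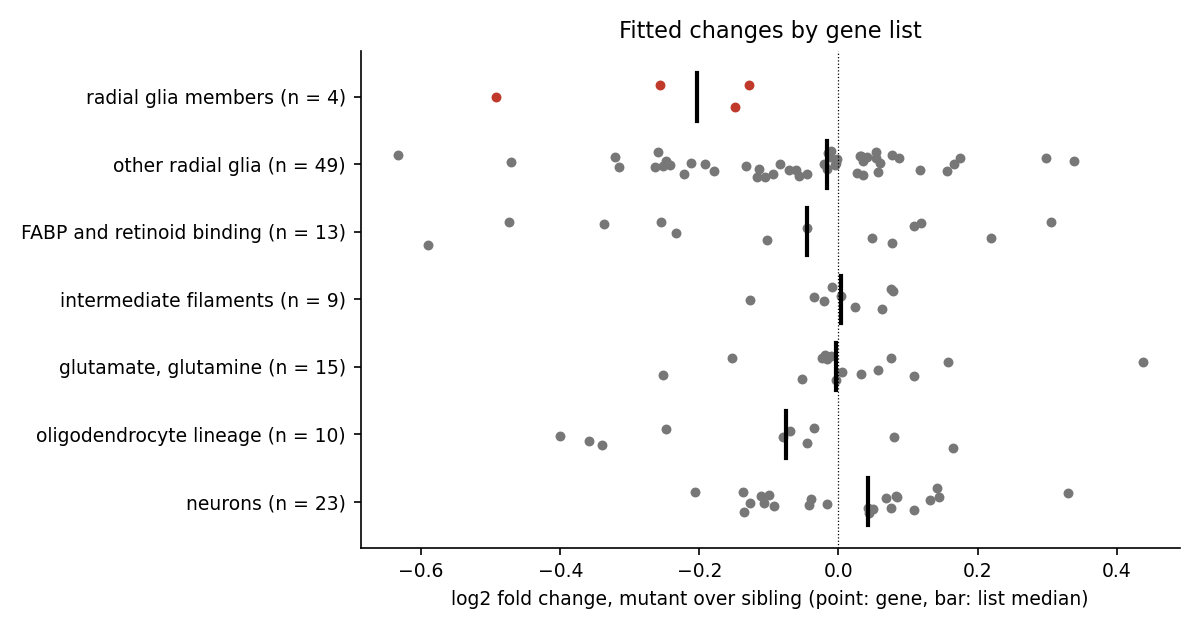
Log2 fold change, mutant over sibling, of each tested gene in 7 lists, with the list medians as black bars. The 4 radial glia members (red) have a median of −0.20, and the 49 other radial glia genes one of −0.02. The list of 10 lens genes, not drawn here, also has a median of −0.20.

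Among tissues where vim or glula may also be expressed, 8 of 10 lens genes had lower fitted values (median −0.20). Over all tested genes 49.8% did. An unadjusted edgeR p under 0.05 was reached by 2 lower lens genes, where 3.06% of all tested genes were lower. These were mipb at −0.64 ± 0.25 (SE) and lim2.4 at −0.35 ± 0.15. Of 17 muscle genes, 11 had higher fitted values (median 0.03). Here 2 higher genes had an unadjusted edgeR p under 0.05, myf5 at 0.39 ± 0.14 and myod1 at 0.25 ± 0.12, where 3.79% of all tested genes were higher. Of 7 notochord genes, 5 were higher and 2 lower (median 0.21). At an unadjusted edgeR p under 0.05, 3 of them were higher, where 3.79% of all tested genes were, and 1 was lower, where 3.06% were. The higher ones included col8a1a, a notochord collagen gene that DESeq2 called (0.54 ± 0.09, adjusted p = 0.000187). The lower one was the Hedgehog ligand gene shha (−0.35 ± 0.11), which is also a floor plate gene. The medians of 9 neural crest genes (0.06; snai1b at 0.52 ± 0.15, snai2 at 0.14 ± 0.06), 11 epidermis genes (−0.04; krt8 at −0.19 ± 0.10, krt18 at −0.15 ± 0.08) and 12 blood and endothelium genes (0.03; etv2 at 0.23 ± 0.08, egfl7 at 0.25 ± 0.10) were small. Fitted values were higher in 5 of the 9 neural crest genes, 2 of the 11 epidermis genes and 9 of the 12 blood and endothelium genes. An unadjusted edgeR p under 0.05 was reached by 2 higher neural crest genes and 2 higher blood and endothelium genes, where 3.79% of all tested genes were higher. In the epidermis list 0 genes reached it, where 6.85% of all tested genes did. For 9 genes used in every cell the median was −0.002, with hprt1 at 0.22 ± 0.06 and actb1 at −0.06 ± 0.07. The part of these tissues in the vim and glula values was not tested.

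The genes whose levels most resembled each member within the groups were sought among 10627 tested genes with a mean of at least 50 counts, by Pearson's correlation of log2 CPM after each group's mean was subtracted, over the same 11 embryos. For gfap they were hoxa4a (r = 0.97), siah1 (0.97) and sox11b (0.96). Log2 fold changes of hoxa4a, siah1 and sox11b were −0.06 ± 0.11, −0.02 ± 0.07 and −0.25 ± 0.08 (SE). The gene sox11b is a SoxC transcription factor gene of differentiating neurons. For vim they were cx43, a gap junction gene of glia and other tissues (0.93), rundc3ab (0.90) and mao (0.90), and for glula dync1i2a (0.96), vac14 (0.92) and hmgcs1 (0.92), which encodes an enzyme of sterol synthesis. For fabp7a they were fam117ab (0.95), zgc:174268 (0.92), ptbp2a (0.91), zgc:154093 (0.91) and gp1bb (0.90). These 5 did not share the group difference of fabp7a, with log2 fold changes of 0.27 ± 0.12, −0.07 ± 0.11, 0.03 ± 0.07, 0.24 ± 0.09 and 0.30 ± 0.29 (SE). The values describe these libraries only, since the highest of so many correlations over 11 embryos is large in any data, and embryos share depth and the separation of mutant 7 and sibling 3.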

How the data were processed

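For each of 11 single embryos the authors deposited counts and TPM values of 14473 genes. The tools named in the submitters' processing notes are RSEM 1.2.18, Bowtie 1.1.1 and CASAVA 1.8.2, with Zv9 as the genome build. Their roles and the annotation are not given in the sources used here. Per the labels' protocols the TruSeq RNA v2 kit was used, which does not mark strand. The deposited counts were whole, and were treated as estimates that had been rounded. Groups follow the sample titles. The comparison used the quasi-likelihood test of edgeR 4.0.16 (R 4.3.3; TMM, filterByExpr, Benjamini-Hochberg at 0.05 over 12301 genes), and fold changes are mutant over sibling. SE were derived from the F statistic. CPM used TMM library sizes, and log2 CPM a prior count of 1. DESeq2 1.42.0, limma 3.58.1 (voom), other scalings and filters, log2 TPM with pseudocounts of 1 and 0.1, a block for the replicate number and the removal of embryos were alternatives. The removal of the 3 embryos that stood apart, and of embryos under DESeq2, was chosen after the data were examined.

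The members and gene lists were chosen with earlier results of these data known. The named genes were the members, their paralogs, the called genes or else the 2 of lowest p of each list, and the genes most like each member. Others (further genes of low unadjusted p in the glial lists, and sox2, sox3, pax6a, notch1a, her6, her9, slc1a3a, slc1a2b, s100b, cyp19a1b, olig1, olig2, sox10 and shha) were named after their values were seen. List names were matched by symbol or by synonyms in the GRCz12tu gene table. Simulated counts for this comparison held 50 genes at each fold size among 12232 genes. At 1.3-fold edgeR found 14 and DESeq2 20 of them, and at 1.5-fold 35 and 40, while 8 of 145 edgeR calls and 32 of 185 DESeq2 calls over all fold sizes were of unchanged genes. The genes were simulated independently, without variation shared across genes of an embryo. In the data edgeR called 0 genes, so these rates may not carry over. All 25 pairs of embryos within a group differed by more than sampling noise (lowest chi-square 7.99 per degree of freedom). Figures were drawn with matplotlib 3.10.9.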

Additional observations from a re-analysis of the deposited data

Results flagged for a closer look

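In 8 groups checked (4 genes in 2 groups), 2 single embryos lay far from the rest of their group by Dixon's test at the 95% level, which chance flags in about 1 of 20 groups. Sibling 4 had a fabp7a level of 7.05 log2 CPM, with the next sibling at 7.37 (gap over range 0.744, critical value 0.710). Mutant 3 had a glula level of 9.24 log2 CPM, with the next mutant at 8.54 (gap over range 0.702, critical value 0.625).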

How the results depend on the processing

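All 4 members had lower fitted values in mutants in every setting run. For fabp7a edgeR gave −0.59 to −0.45 with 1 embryo left out, and DESeq2 −0.49 over all embryos and −0.58 to −0.45 with 1 left out (−0.58, −0.45, −0.50 and −0.56 where it passed, without mutant 4, 6 or 7 or sibling 4). The number of genes called over the whole table rose from 0 to 44 by DESeq2 and 2 by limma-voom, ran from 0 to 24 with 1 embryo left out (24 without mutant 6, 1 without sibling 7), and was 34 without mutant 6, mutant 7 and sibling 3. The log2 ratio of fabp7a to gfap ran from −0.30 to −0.18 with 1 embryo left out. It was −0.20 (exact permutation p = 0.171) without those 3 embryos and −0.21 (exact p = 0.103) without mutant 7 and sibling 3. The ratio to vim ran from −0.43 to −0.26, and was −0.27 (exact p = 0.171) and −0.37 (exact p = 0.0794), and that to glula was −0.30 (exact p = 0.429) and −0.26 (exact p = 0.413). With fewer embryos the exact test has fewer splits and less power.

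With the replicate number as a block (replicate block), where 3 numbers are shared by the groups, the log2 fold changes were −0.32 ± 0.20 (SE) for fabp7a, −0.12 ± 0.16 for gfap, −0.10 ± 0.18 for vim and −0.04 ± 0.39 for glula, and 0 genes passed. An embryo whose number is not shared takes up its own block. The blocked fold changes therefore rest on replicates 3, 4 and 7 of both groups alone. Their distance from the main values mixes the block with the change of embryos. Embryos with the same number did not deviate together (r across genes −0.31, −0.19 and −0.14). With only 3 shared numbers, this cannot settle whether the numbers pair embryos.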
